A study of Mus musculus with 4 samples.

Results

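S1-like nuclei of the proximal tubule were examined in mouse kidney, 539 of the 27343 nuclei kept from 4 mice, or 1.97%. They were chosen by counts of 6 genes in each nucleus. A member held at least 1 UMI of *Lrp2*, at least 2 UMIs of *Slc5a12*, and 0 UMIs of each of 4 genes, *Cyp7b1*, *Slc22a19*, *Slc22a28* and *Cntnap5a*. A UMI, a unique molecular identifier, marks 1 captured RNA molecule, so that its PCR copies count once.

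Single-nucleus RNA sequencing was made from kidneys of 12-week-old male mice, 2 knockout mice of genotype *Hoxb7Cre+;Tfap2a fl/fl* and 2 Cre-negative *Tfap2a fl/fl* littermates as controls. Both groups carry the floxed *Tfap2a* alleles, and only the knockout mice carry the Cre transgene. The Hoxb7 promoter drives Cre in cells of ureteric origin, among them the collecting duct, so that S1 cells lie outside its domain. Each mouse gave 1 library. Since the study aimed at the medulla, its mid-kidney tissue held only part of the cortex by design. This limits how well these samples represent the cortical S1 segment.

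The proximal tubule takes back most of what the glomerulus filters, and S1 is its first, convoluted segment. S1 cells take up glucose through the low-affinity, high-capacity transporter SGLT2, phosphate through sodium-coupled carriers, amino acids through carriers on both faces, and filtered proteins through the receptors megalin and cubilin. Later segments carry a different set of transporters, with high-affinity glucose uptake and secretion of organic ions.

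The libraries of control mouse 1 and control mouse 2 held 42138345 and 24998797 UMIs, those of knockout mouse 1 and knockout mouse 2 held 44964099 and 22179410. Kept nuclei numbered 7738, 5430, 7998 and 6177 in that order of mice, an order used for every series of values here. The members numbered 140, 71, 157 and 171. Their summed UMIs came to 300348, 168965, 324612 and 409388, with a median of 2016.5, 2149, 1868 and 2248 UMIs per nucleus. Control mouse 2 gave the smallest sum. Values below are CPM, the UMIs of a gene per 1000000 UMIs of the summed nuclei of 1 mouse, unless another unit is named. Confidence intervals and the limits given for a count of 0 (3 UMIs or 3 nuclei) cover counting error only.

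Libraries shared from 7 to 18 kept barcodes per pair of mice, and no pair shared a barcode among its S1-like members. Mitochondrial UMIs differed between the mice, at 1.57%, 0.559%, 1.06% and 0.340% of the member sums. The mice numbered 1 had the larger libraries and the higher mitochondrial percentages in both genotypes. Within a number, the knockout mouse had the lower percentage.

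*Tfap2a* (ENSMUSG00000021359, chr13:40713802-40738238), the AP-2 transcription factor gene deleted by Cre, had 1 UMI in control mouse 1, 0 in control mouse 2, and 1 in each knockout mouse. It was thus found in 1 of 140, 0 of 71, 1 of 157 and 1 of 171 members, and the 0 allows a share of up to 4.23% of nuclei. In nuclei outside the proximal tubule, which had 0 UMIs of *Lrp2* and *Slc5a12* and of the 4 genes, 6.19%, 6.96%, 6.12% and 5.95% held a UMI of *Tfap2a*. Median depth was 2053 UMIs in the members, and 1939, 2093, 1762 and 2064.5 UMIs in the outside nuclei of the 4 mice. *Tfap2a* was at or near 0 in S1-like nuclei of every mouse, and too sparse to be tested, since a tested gene had at least 10 UMIs over the 4 mice. Counts from the 3′ end of a gene do not show whether the floxed part of it was deleted.

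Of the related factors, *Tfap2b* had 6, 0, 6 and 2 UMIs, *Tfap2d* had 1 UMI in all, and *Tfap2c* and *Tfap2e* had 0 in every mouse. The log2 fold change of *Tfap2b*, knockout over control, was -0.17 (SE 0.99), with control mouse 2 at 0 and both genotypes overlapping. It was -0.86 without control mouse 2, and its direction turned without knockout mouse 2 (0.52), with the replicate number as a block (0.20) and by DESeq2 (0.07). *Wnt9b*, a signalling ligand of the collecting duct lineage, had 1, 0, 0 and 1 UMIs. *Alcam*, a cell adhesion molecule, stood at 29.97, 71.0, 70.9 and 53.7 CPM, with a log2 fold change of 0.38 (SE 0.49). Its genotypes overlapped, and in nuclei outside the proximal tubule it stood at 242, 289, 244 and 238 CPM.

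The counts that chose the members are described here without a test. *Lrp2* encodes megalin, the large endocytic receptor of the brush border, and members had a median of 4 UMIs of it and a highest count of 26. *Slc5a12* encodes a sodium-coupled lactate transporter of the proximal tubule, with a median of 6 UMIs and a highest count of 31. By mouse, the median *Slc5a12* count was 6, 5, 5 and 8 UMIs. Knockout mouse 2 had the highest median, and it also had the highest median depth.

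Of the 539 members, 75 had exactly 2 UMIs of *Slc5a12*, just inside the threshold, and another 193 nuclei that met the other criteria had 1 UMI, just outside it. *Slc5a2*, which the choice did not use, stood at 729 CPM over the nuclei just inside and at 356 CPM over those just outside. *Slc34a1* likewise stood at 4737 CPM inside and 2064 CPM outside, and *Cubn* at 539 and 253 CPM. Over the 354 members with at least 5 UMIs of *Slc5a12*, *Slc5a2* stood at 988 CPM. Nuclei just outside thus held S1 markers at lower levels than those just inside.

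The criterion on the 4 genes, used here as marks of later segments, left out 4532 nuclei that met the criteria on *Lrp2* and *Slc5a12*, more than it kept. Of the nuclei that met those criteria, 88.3%, 86.1%, 86.4% and 85.2% held at least 1 UMI of *Slc22a28* (ENSMUSG00000063590, chr19:8061958-8131982), an organic anion transporter gene. The nuclei left out were deeper than the members in every mouse, with medians of 2865.5, 3325, 2860 and 3210 UMIs. The part of depth in this split was not tested. Among those left out, 733 nuclei had 1 UMI of the 4 genes and 3799 had at least 2. *Slc5a2* stood at 927 CPM with 1 UMI and at 789 CPM with at least 2, and *Slc34a1* at 4893 and 4876 CPM. *Slc7a8* stood at 287 and 177 CPM, and *Slc6a18*, a later-segment carrier, at 47.1 and 114 CPM. *Slc5a2* and *Slc34a1* were therefore near member levels in the left-out nuclei, with *Slc7a8* lower where 2 UMIs or more were present, and the 539 members are a part of the nuclei with S1 markers in these libraries.

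**Figure D1:**
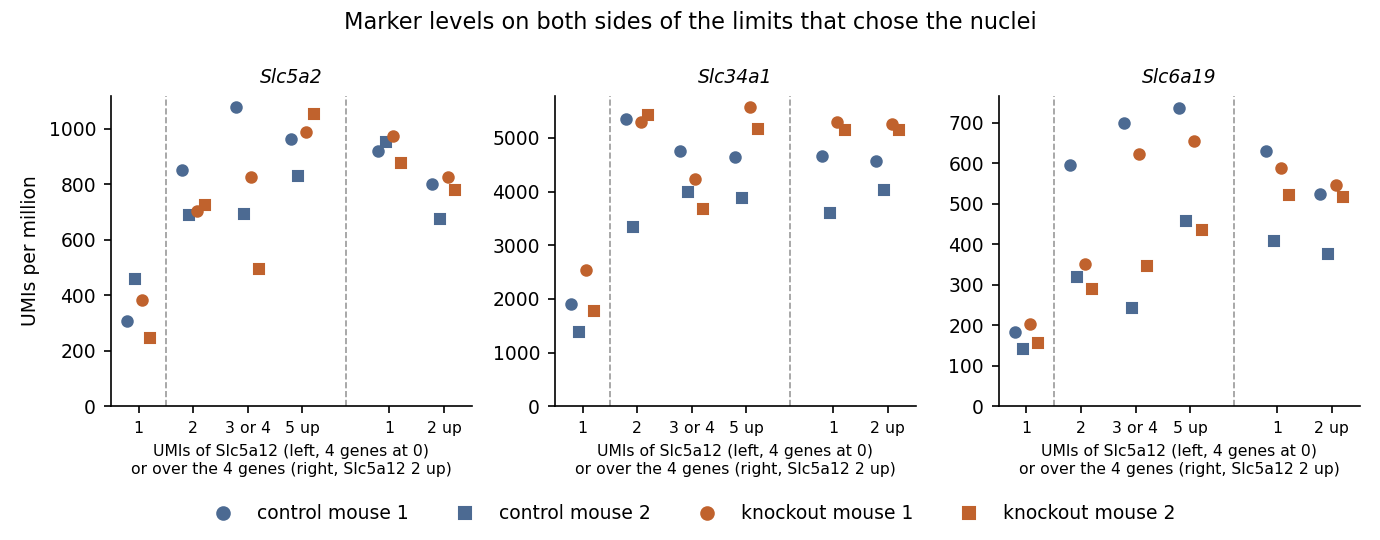
Levels of *Slc5a2*, *Slc34a1* and *Slc6a19* on both sides of the thresholds (broken lines), in CPM, with 1 point per mouse, by UMIs of *Slc5a12* (left) and of the 4 genes (right). Over all mice *Slc5a2* stood at 356 CPM with 1 UMI of *Slc5a12*, at 729 CPM with 2, and at 789 CPM in nuclei left out with at least 2 UMIs of the 4 genes.

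The label S1-like was checked against the markers that the choice did not use. *Slc5a2* (ENSMUSG00000030781, chr7:128265683-128272430) encodes SGLT2, the glucose transporter of the early proximal tubule. In the members it stood at 976 and 775 CPM in control and 912 and 953 CPM in knockout mice. Later proximal tubule nuclei, defined by at least 1 UMI of *Lrp2*, at most 1 of *Slc5a12* and at least 2 of the 4 genes, numbered 8849 and held 53.2, 26.3, 79.6 and 38.0 CPM. All 4 mice had far higher levels in the members.

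The share of members with a UMI of *Slc5a2* was 82.9%, 71.8%, 73.9% and 78.4%, and in nuclei outside the proximal tubule it was 7.49%, 3.37%, 11.1% and 2.02%. Free RNA, read from barcodes with under 100 UMIs, held 311, 184, 325 and 254 CPM of it. The members exceeded both in every mouse. *Slc34a1* (ENSMUSG00000021490, chr13:55399622-55414695), the main renal phosphate cotransporter gene, stood at 4721, 3782, 5262 and 4924 CPM in members and 2165, 1572, 2831 and 2355 CPM in later nuclei. *Cubn* (ENSMUSG00000026726, chr2:13276338-13491876), which encodes cubilin, did not set members apart, at 693, 758, 668 and 745 CPM in members and 772, 777, 601 and 808 CPM in later nuclei. *Lrp2* (ENSMUSG00000027070, chr2:69424335-69586029) stood at 1968, 2479.8, 1833 and 1822 CPM and *Slc5a12* (ENSMUSG00000041644, chr2:110597299-110649345) at 3523, 2675, 3047 and 4204 CPM in members, as chosen. All 5 markers were present in every mouse.

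Markers of other cell types were present at low levels, by a list of 43 genes. Of these 38 had a UMI in members, and *Egfl7*, *Pdgfra*, *Col1a1*, *Cd3e* and *Nphs1* were at 0. Their summed level was 2694, 1557, 4073 and 1546 CPM, against 7492, 11145, 7710.1 and 13809.6 CPM in free RNA. Both mice numbered 1 held more of these markers than both numbered 2.

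Thick ascending limb markers made up 1851, 1219, 1491 and 1075 CPM, of which *Slc12a1*, the loop diuretic target, had most UMIs. Distal convoluted and connecting tubule markers summed to 453, 82.9, 1913 and 252 CPM, led by *Slc8a1*, a sodium-calcium exchanger gene. Intercalated cell markers summed to 46.6, 29.6, 379 and 73.3 CPM, led by *Slc26a4*, which encodes pendrin. Knockout mouse 1 was highest for both distal lists, and a few nuclei held those UMIs. Of its 479 UMIs of *Slc8a1*, 251 lay in 1 nucleus and 471 in 5, and of its 75 UMIs of *Slc26a4*, 73 lay in 1 nucleus. Of the 188 UMIs of *Slc12a1* in control mouse 1, 98 lay in 1 nucleus.

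Collecting duct principal cell markers, led by *Aqp2*, summed to 127, 59.2, 108 and 61.1 CPM. Endothelial markers, led by *Emcn*, summed to 156, 71.0, 89.3 and 4.89 CPM. Interstitial markers, led by *Pdgfrb*, summed to 0, 5.92, 12.3 and 2.44 CPM. The genotypes overlapped for all 3 lists. Immune markers, led by *Cd74*, summed to 49.9, 65.1, 64.7 and 56.2 CPM, and podocyte markers, led by *Wt1*, to 9.99, 23.7, 15.4 and 22.0 CPM.

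Of the 43 markers 22 were tested by genotype. By edgeR's quasi-likelihood test none passed at a Benjamini-Hochberg adjusted p under 0.05. In that test 4 or 18.2% had an unadjusted p under 0.05, 2 higher and 2 lower in knockout mice. Over all 9825 genes this share was 3.2%. The median log2 fold change of the 22 was -0.06, over lists that went different ways. It was 0.92 for distal convoluted and connecting tubule (5 of 5 higher) and 3.06 for intercalated cells (2 of 2 higher). It was -1.83 for endothelial cells (4 of 4 lower) and -0.14 for the thick ascending limb (5 of 5 lower). The first of these moved to -0.72 without knockout mouse 1 and the last to 0.34 without control mouse 1. By DESeq2 none of the 22 was called either. *Emcn*, with 15, 4, 5 and 0 UMIs, was called without knockout mouse 1, which leaves a knockout count of 0. *Slc8a1* (log2 fold change of 3.47), *Slc26a4* (5.57) and the proton pump subunit gene *Atp6v1g3* (2.20) were called without knockout mouse 2. *Slc8a1* and *Slc26a4* were also called with the replicate number as a block and without a filter on counts. Their log2 fold changes were 2.66 and 4.70 with all mice, and 0.33 and 2.04 without knockout mouse 1. Their UMIs lay mostly in a few nuclei of knockout mouse 1, as given above.

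Free RNA in the member sums was scaled on 5 of the 6 thick ascending limb markers, without *Cldn10*, a claudin gene that the proximal tubule also expresses. It made up 34.3%, 7.44%, 27.1% and 8.52% of the sums on this scale, and 37.0%, 15.1%, 30.8% and 11.6% with all 6 markers. Members with at least 20 UMIs of the 6 markers numbered 4, 0, 4 and 3, and without them the scale on 5 markers gave 15.2%, 7.44%, 14.6% and 2.26%. The subtraction used below is the first of these, so a few nuclei set much of it in all mice but control mouse 2. Scaled on mitochondrially encoded genes free RNA made up 12.4%, 8.08%, 13.8% and 13.2%. The share of members with at least 2 UMIs of other-cell-type markers was 67.9%, 76.1%, 70.1% and 46.8%. It was lowest in knockout mouse 2.

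The part of these markers, of free RNA and of the mitochondrial percentage in the results below was not tested.

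Beyond the markers, S1-like nuclei were compared with later proximal tubule nuclei as a description, since the counts that separate them also chose them. Of 9823 genes measured in both, 389 or 3.96% stood at least 2-fold above later nuclei in all 4 mice and 231 or 2.35% at least 2-fold below. With no limit on the fold, 2078 or 21.2% stood above and 1726 or 17.6% below in all 4 mice, and the counts of listed genes given below use this criterion. Later nuclei were deeper, with medians of 3315, 3949.5, 3279 and 3638.5 UMIs. Of 212 genes of the lists described next that were measured in both, 21 or 9.91% stood at least 2-fold above and 26 or 12.3% at least 2-fold below. With no limit on the fold, 66 or 31.1% of these 212 stood above and 82 or 38.7% below in all 4 mice. Folds below are the mean CPM over the 4 mice in members divided by that in later nuclei. Listed genes named beyond those with most UMIs of each list were chosen after their values were seen.

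Sugar carriers divided by segment. *Slc2a2*, the basolateral facilitative carrier GLUT2, stood at 379.6, 361, 404 and 278 CPM in members, 3.09-fold the level in later nuclei, and *Slc5a2* stood 18.3-fold above. *Slc5a1*, the high-affinity glucose transporter SGLT1 of later segments, had 6.66, 0, 0 and 7.33 CPM in members and 32.7, 52.3, 38.5 and 32.5 CPM in later nuclei. *Slc5a10*, a mannose and fructose carrier, was 0.210 times the later level, and *Slc5a8*, another sodium-coupled monocarboxylate carrier, 0.0682 times. RNA of SGLT2 and GLUT2 was thus high and that of SGLT1 low in members of all 4 mice.

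Amino acid carriers divided in the same way. *Slc7a8*, the light chain of a basolateral neutral amino acid exchanger, stood at 266, 456, 225 and 357 CPM in members and 11.1, 11.6, 11.1 and 6.83 CPM in later nuclei, a fold of 32.1. *Slc6a19*, the apical neutral amino acid transporter B0AT1, stood at 719, 391, 601 and 415 CPM, a fold of 8.70. *Slc7a7*, a basolateral exchanger of cationic and neutral amino acids, stood at 852, 1184, 499 and 623 CPM, a fold of 7.03. These carriers share transport of neutral amino acids across the early tubule. *Slc16a10*, which exports aromatic amino acids, was at a fold of 8.62, and *Slc43a2*, another exporter, at 4.44.

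Known carriers of later segments were low in members. *Slc6a18*, the apical transporter B0AT3, stood at 56.6, 65.1, 55.5 and 58.6 CPM in members and 926, 1404, 814 and 1056 CPM in later nuclei, 0.0561 times the level there. *Slc7a13*, an aspartate and glutamate carrier of the late proximal tubule, was at 0.0570 times. *Tmem27*, the collectrin gene whose product brings apical amino acid transporters to the surface, stood higher in members, at 1488, 805, 1473 and 787 CPM, than in later nuclei, at 771, 386, 879.8 and 363 CPM. Free RNA held still more of it in every mouse, at 1712, 1873, 1778 and 1305 CPM. The part of free RNA in this contrast was not tested. Of the 22 listed genes, 8 were above and 10 below later nuclei in all 4 mice, against 21.2% and 17.6% of all genes.

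Genes of phosphate, calcium and vitamin D handling were above later nuclei in all 4 mice in 6 of 14 cases and below in 3, against 21.2% and 17.6% of all genes. *Slc34a3*, a sodium-phosphate cotransporter gene, stood at 163, 112, 129 and 115 CPM in members and 5.16, 3.70, 7.22 and 2.58 CPM in later nuclei, a fold of 27.9, and *Slc34a1* was at a fold of 2.09. *Pdzk1*, a brush border scaffold that binds the phosphate transporter, stood at 486, 609.6, 644 and 743 CPM in members and 617, 803, 728 and 682 CPM in later nuclei, and was lower in members of 3 mice. The phosphate exporter *Xpr1* stood at 423, 397, 493 and 596 CPM in members and 291, 288, 322 and 294 CPM in later nuclei. *Cyp24a1*, which inactivates vitamin D, stood at 13.3, 82.9, 18.5 and 125 CPM, higher in both mice numbered 2 than in both numbered 1.

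Receptors and adaptors of protein uptake were present throughout. *Dab2*, the adaptor that couples megalin to clathrin, stood at 3895, 5569, 3487 and 4159.9 CPM in members and 2138, 1921, 2039 and 2068 CPM in later nuclei, a fold of 2.10. *Myo6*, a motor of endocytosis, stood at 693, 692, 635 and 740.1 CPM in members and 725, 769, 715 and 798 CPM in later nuclei. *Dab2* was thus above later nuclei in every mouse, while *Myo6* and *Cubn* were close to them. Of 15 listed genes, 8 were above and 1 below later nuclei in all 4 mice, against 21.2% and 17.6% of all genes.

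Of the genes of sodium, bicarbonate and ammonia handling, *Slc4a4*, the basolateral sodium bicarbonate cotransporter, stood at 3746, 4149, 3429 and 3429.5 CPM in members, a fold of 2.83. *Car2*, a cytosolic carbonic anhydrase, was at a fold of 3.76. *Slc9a3*, the apical sodium-proton exchanger NHE3, stood at 349.6, 331, 354 and 313 CPM in members and 205, 214, 244 and 159 CPM in later nuclei. These 3 were above later nuclei in every mouse, as were 7 of the 14 listed genes, while 4 were below in every mouse, against 21.2% and 17.6% of all genes. Among the 4 were the carbonic anhydrase gene *Car4*, at a fold of 0.504, the water channel gene *Aqp1*, at 0.589, and the exchanger gene *Slc9a8*, at 0.256. The sodium pump subunit gene *Atp1b1* stood at 912, 704, 1050.5 and 801 CPM in members and 858, 812, 1014 and 712 CPM in later nuclei.

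Metabolic genes were spread over both groups of nuclei. *Pck1*, which encodes a rate-limiting enzyme of glucose synthesis, stood at 219.7, 159.8, 456 and 432 CPM in members, 0.435 times the level in later nuclei. *Fbp1*, another glucose synthesis enzyme, stood at 716, 598, 650.0 and 603 CPM in members and 661, 514, 704 and 600.2 CPM in later nuclei. *G6pc*, which releases free glucose, stood at 409.5, 420.2, 407 and 772 CPM in members and 228, 168, 258 and 383 CPM in later nuclei. The first and the last of these differed in direction between the segments. *Ppargc1a*, a coactivator of mitochondrial genes, was at a fold of 2.63.

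Fatty acid genes were lower in members in most cases, with 15 of 26 listed below later nuclei in all 4 mice and 1 above, against 17.6% and 21.2% of all genes. *Slc27a2*, a fatty acid uptake and activation protein, stood at 686, 580.0, 616 and 865 CPM in members, 0.263 times the later level. *Acsm3*, an acyl-CoA synthetase gene, was at 0.103 times. *Acsm2* showed little contrast, at 3046, 2427, 2763 and 2592 CPM in members and 2969, 2428, 2839 and 2399.9 CPM in later nuclei.

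Of 23 organic ion carriers 14 were below and 5 above later nuclei in all 4 mice, against the same 17.6% and 21.2% of all genes. *Slco1a6*, an organic anion carrier, was at 0.174 times the later level, *Slc22a30* at 0.333 times and *Slc17a3*, a urate carrier, at 0.336 times. *Abcc2*, an apical export pump, stood at 456, 449.8, 453 and 554 CPM in members and 963, 1139, 899 and 914 CPM in later nuclei. The exceptions included *Slc13a1*, the apical sulfate transporter, at a fold of 2.20, and *Abcc4*, an export pump, at 6.30. *Slc47a1*, which exports organic cations, stood at 719, 882, 718 and 967 CPM in members and 1056, 1084, 1096 and 1308 CPM in later nuclei.

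Of 20 transcription factor genes 5 were above and 10 below later nuclei in all 4 mice, against 21.2% and 17.6% of all genes. *Maf* stood at 876, 539, 869 and 997 CPM in members and 341, 179, 346 and 365 CPM in later nuclei, a fold of 2.66. *Hnf4a*, a regulator of proximal tubule maturation, stood at 303, 331, 317 and 322 CPM in members and 374, 434, 391 and 429 CPM in later nuclei. Its relative *Hnf4g* was at 0.403 times the later level and the thyroid hormone receptor gene *Thrb* at 0.400 times. *Maf* thus stood above later nuclei in every mouse, and the last 2 stood below. *Nfia* was lower in members of every mouse, at 1229, 1201, 1269 and 1427 CPM against 1524, 1658, 1643 and 2047 CPM, and *Esrrg* had no common direction, at 2497, 3054, 2529 and 3168 CPM against 2819, 2791, 2447 and 2810.4 CPM.

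Genes outside the lists, chosen after their values were seen, also set members apart. *Epb41l3*, a membrane skeleton gene, was at a fold of 30.9 over later nuclei, and *Angpt1*, an angiopoietin gene, at 29.8. *Gatm*, which encodes the first enzyme of creatine synthesis, stood at 1715, 1841, 1436 and 1341 CPM in members and 148, 109, 191 and 86.4 CPM in later nuclei. *Gpx3*, the secreted glutathione peroxidase of the proximal tubule, stood at 7691, 5652, 8049.6 and 6285 CPM in members, a fold of 4.77. *Ghr*, the growth hormone receptor gene, was low by contrast, at 0.214 times the later level.

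**Figure D2:**
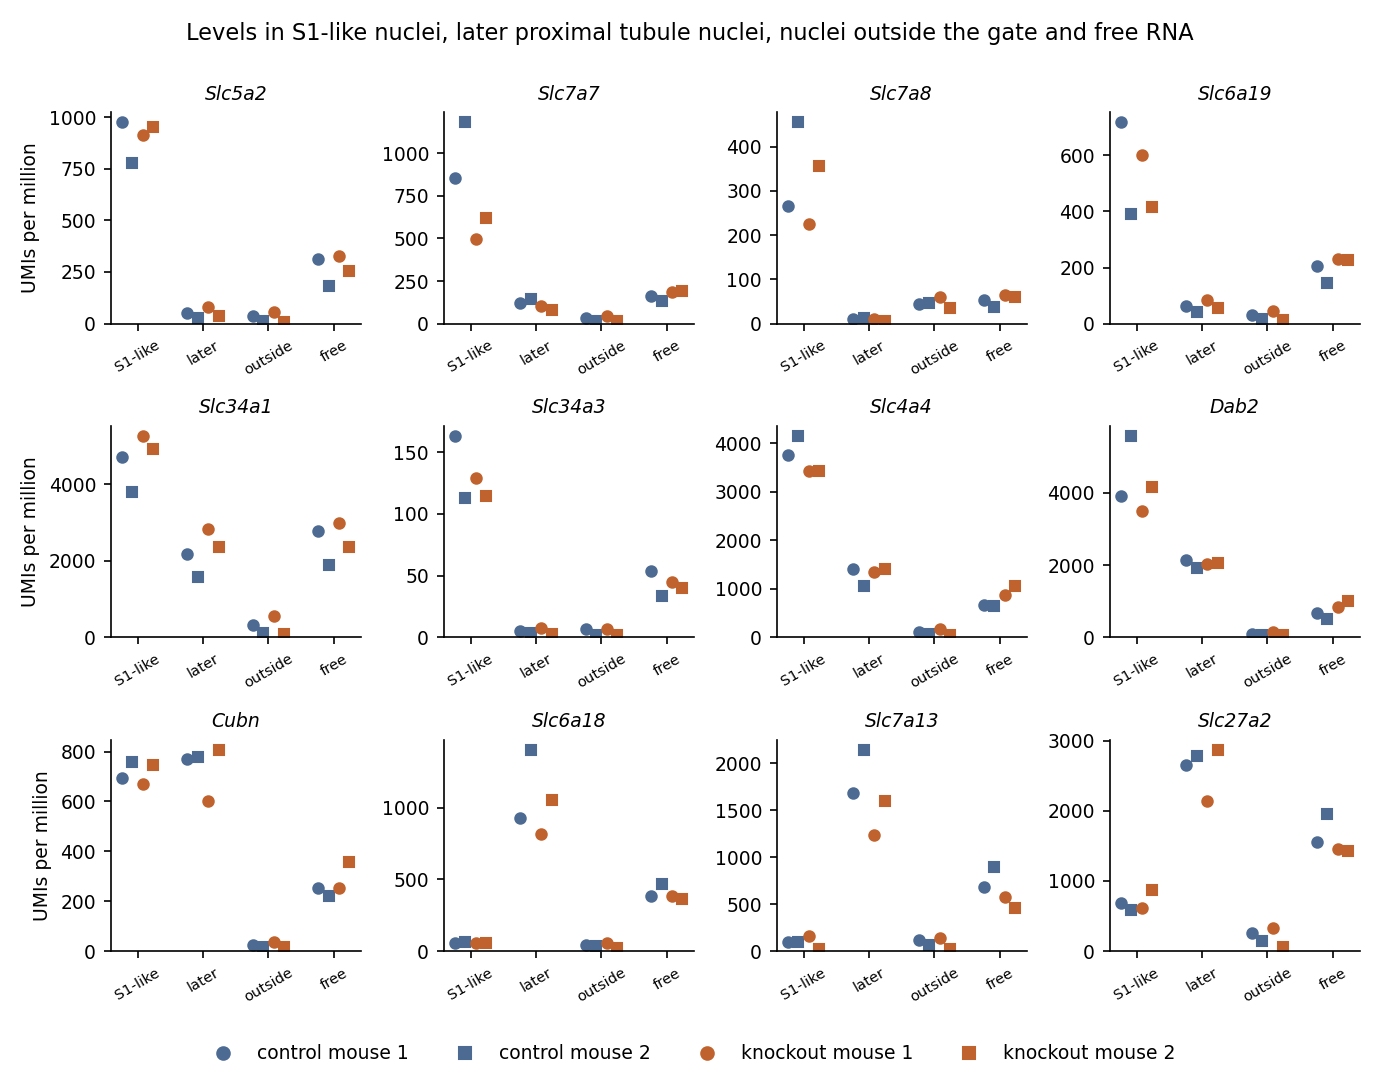
Levels of 12 genes in S1-like nuclei, later proximal tubule nuclei, nuclei outside the proximal tubule and free RNA, in CPM on linear axes from 0, with 1 point per mouse. *Slc5a2*, *Slc7a8* and *Slc34a3* lay above the later nuclei in all 4 mice, and *Slc6a18*, *Slc7a13* and *Slc27a2* below.

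The next comparison asked whether the number of S1-like nuclei differed with genotype. They made up 1.81%, 1.31%, 1.96% and 2.77% of kept nuclei, with 95% Wilson intervals of 1.54 to 2.13, 1.04 to 1.65, 1.68 to 2.29 and 2.39 to 3.21%. Both knockout mice had a higher share than both control mice under these criteria. The difference of means was 0.807 percentage points, with SDs of 0.355 (control) and 0.569 (knockout, n = 2 each). A two-sided exact permutation test gave p = 0.333, the smallest that 2 mice against 2 allow.

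With at least 3 UMIs of *Slc5a12* the shares were 1.63%, 0.939%, 1.54% and 2.66%, and with mitochondrial UMIs under 1% they were 2.32%, 1.503%, 2.04% and 3.01%. The genotypes then overlapped, and the exact permutation test gave p = 0.667 for each. With all nuclei thinned to 1500 UMIs the difference was 1.75 points.

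The difference was 1.21 points without knockout mouse 1 and 0.405 points without knockout mouse 2. It was 1.06 points without control mouse 1 and 0.556 points without control mouse 2. Without the criterion on the 4 genes the shares were 20.3%, 10.2%, 20.8% and 20.9%, so that control mouse 2 alone stood low. Among nuclei with *Lrp2* the S1-like share was 2.73%, 2.73%, 2.77% and 4.58%, so that knockout mouse 2 alone stood high.

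Expression was then compared between the genotypes in the summed members, to ask which genes differ in a segment outside the Cre domain. One gene passed, *Npas3*, which encodes a neuronal PAS domain transcription factor. It was lower in knockout mice and nearly absent from their S1-like nuclei. By the quasi-likelihood test of edgeR, adjusted after Benjamini-Hochberg, 1 of 9825 genes was called at an adjusted p under 0.05, or 0.0102%, with 0 higher and 1 lower. At an unadjusted p under 0.05 there were 314 genes or 3.2%, of which 155 (1.58%) were higher and 159 (1.62%) lower. DESeq2 called 0 genes at the same threshold and had 65 genes or 0.662% at an unadjusted p under 0.05. The count of called genes was 2 without control mouse 1, 0 without control mouse 2, 31 without knockout mouse 1 and 11 without knockout mouse 2.

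*Npas3* (ENSMUSG00000021010, chr12:53248026-54072173) had 68 and 69 UMIs in the members of control mouse 1 and control mouse 2, with 0 and 5 UMIs in knockout mouse 1 and knockout mouse 2. These counts are 226, 408, 0 and 12.2 CPM, and the 0 allows up to 9.24 CPM. The genotypes did not overlap, and the knockout values lay far below the control values. It was detected in 41 of 140 (29.3%) and 34 of 71 (47.9%) members of the control mice. In the knockout mice it was detected in 0 of 157 members, which allows a share of up to 1.91%, and in 2 of 171 (1.17%). In nuclei outside the proximal tubule the shares were 1.03%, 0.764%, 0.455% and 0.591%. By this share the knockout members were near the outside nuclei, and the control members well above them.

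The fitted log2 fold change of *Npas3* was -5.47 (SE 0.62, n = 2 mice per genotype), with a Benjamini-Hochberg adjusted p of 0.0067 in edgeR's quasi-likelihood test, and the knockout mouse was lower in 4 of 4 pairings with a control mouse. Over the 18 alternatives the adjusted p ranged from 9.94e-21 to 0.884, the log2 fold change from -9.39 to -3.504, and the call was kept in 11. It was lost without control mouse 2 (adjusted p of 0.829), at a log2 fold change of -5.03. It was also lost by DESeq2 (0.507, at -5.68), with free RNA subtracted (0.0555, at -5.48) or subtracted on the mitochondrial scale (0.884, at -5.40), with members taken from 1 UMI of *Slc5a12* (0.207, at -5.40) and with the filterByExpr filter of edgeR (0.0712, at -5.49). The smallest fold, -3.504, was that without members with 2 UMIs or more of other-cell-type markers, where the call was lost too (0.711). The lowest adjusted p was that without a filter on counts. The -9.39 was that without knockout mouse 2, where the knockout count is 0 and the fitted fold change depends on the prior count. The direction was the same throughout. Only the knockout mice carry the Cre transgene, so that carriage of the transgene and deletion of *Tfap2a* cannot be told apart.

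Low *Npas3* in the knockout mice was also measured in other proximal tubule nuclei. In the nuclei left out by the 4 genes, *Npas3* stood at 230.2, 229, 1.94 and 2.34 CPM, and was detected in 41.5%, 43.6%, 0.599% and 0.358% of nuclei. In later proximal tubule nuclei it stood at 230.1, 145, 2.09 and 1.29 CPM, detected in 44.5%, 34.3%, 0.612% and 0.444% of nuclei. Free RNA held 33.7, 14.0, 4.76 and 1.95 CPM. Proximal tubule nuclei of both control mice thus held *Npas3* and those of both knockout mice did not rise above a low level, whichever nuclei were taken.

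In later nuclei the log2 fold change was -6.77, with a Benjamini-Hochberg adjusted p of 0.0687 in edgeR's quasi-likelihood test. Of 17361 genes tested there 0 were called, with 659 or 3.8% at an unadjusted p under 0.05. In outside nuclei *Npas3* stood at 5.29, 3.40, 2.27 and 3.50 CPM, with a log2 fold change of -0.51.

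**Figure D3:**
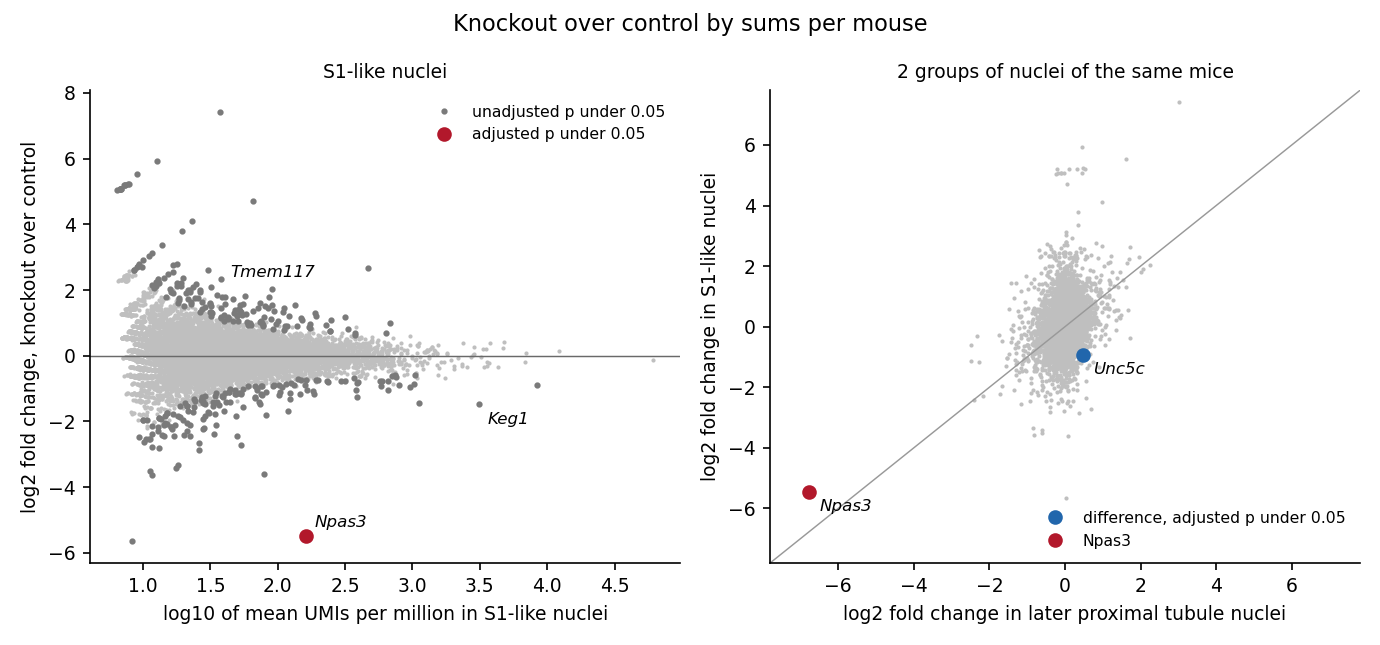
Log2 fold change, knockout over control, of each tested gene in S1-like nuclei against its log10 mean CPM (left) and against the same in later proximal tubule nuclei (right, with the line of equal values), with 1 point per gene. *Npas3*, at -5.47, was the gene called in S1-like nuclei, and *Unc5c*, at -0.94 and 0.47, the gene called for the difference.

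**Figure D4:**
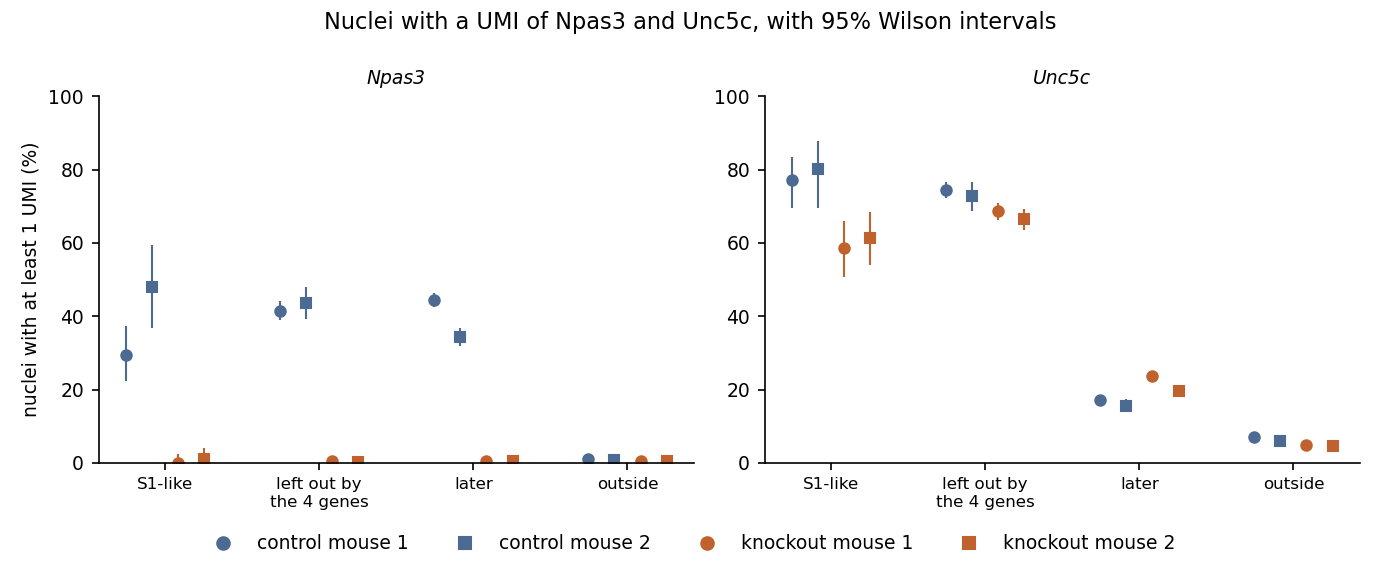
Percentage of nuclei with at least 1 UMI of *Npas3* and *Unc5c* in each mouse, by group of nuclei, with 95% Wilson intervals as lines. *Npas3* was detected in 29.3% and 47.9% of S1-like nuclei of control mice, against 0 and 1.17% in knockout mice.

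Of the next genes by unadjusted p, none passed, and 2 of them, chosen once their values had been seen, are given. *Keg1* (ENSMUSG00000024694, chr19:12695790-12719902), a kidney-expressed acyltransferase family gene, stood at 3253, 5901, 1642 and 1751 CPM, with a log2 fold change of -1.45. Its Benjamini-Hochberg adjusted p was 0.932 in edgeR's quasi-likelihood test. *Keg1* was lower in both knockout mice also in the nuclei left out by the 4 genes, at 4344, 6819, 1995 and 2378 CPM. In later nuclei it stood at 5063, 6328, 2292 and 2946 CPM. *Tmem117* (ENSMUSG00000063296, chr15:94629185-95096097), a transmembrane protein gene, had 13, 4, 49 and 58 UMIs (34 of the 49 in 1 nucleus) and a log2 fold change of 2.02, with a Benjamini-Hochberg adjusted p of 0.677 in edgeR's quasi-likelihood test. Outside the proximal tubule *Tmem117* was higher, at 585, 499, 755 and 693 CPM against 43.3, 23.7, 151 and 142 CPM in members. Members with a UMI of *Tmem117* made up 7.86%, 4.23%, 7.01% and 20.5%, so that its genotypes overlapped by this share. By CPM the genotypes did not overlap for either gene in members. Both were called without knockout mouse 1, at log2 fold changes of -1.44 and 1.94, with the replicate number as a block (adjusted p of 0.0109 and 0.0464) and without a filter on counts (0.000417 and 0.0176). Over all alternatives the adjusted p ranged up to 0.9998 and 0.99996. Without members that held other-cell-type markers the log2 fold change of *Tmem117* was 0.30, and without the criterion on the 4 genes it was 0.09.

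None of the listed genes passed the genotype test. The lists are described by the number of tested genes higher and lower in knockout mice, the number at an unadjusted p under 0.05 in edgeR's quasi-likelihood test, and the median log2 fold change. Over all 9825 genes 5159 were higher and 4666 lower, 3.2% were at an unadjusted p under 0.05, and the median was 0.03. DESeq2 called none of the listed genes either. Without knockout mouse 1 the listed genes called included *Per2*, *Slc7a13*, *Kap* and 7 mitochondrially encoded genes, as given with their lists.

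Carriers stayed near the median of all genes in most lists. Of 8 sugar and monocarboxylate carriers tested, 6 were higher and 2 lower, 0 were at an unadjusted p under 0.05 and the median was 0.31. The sugar median was 0.11 without control mouse 1 (4 higher and 4 lower), 0.05 without knockout mouse 1, 0.10 without knockout mouse 2 and 0.32 without control mouse 2. It was -0.13 without the criterion on the 4 genes and -0.02 without members that held other-cell-type markers. *Slc5a2* had a log2 fold change of 0.07, *Slc2a2* of -0.14 and the monocarboxylate carrier *Slc16a4* of 0.36. Of 19 amino acid carriers, 9 were higher and 10 lower, with a median of -0.04. That median turned to 0.20 without control mouse 1, 0.11 without control mouse 2 and 0.18 without knockout mouse 2, and was -0.08 without knockout mouse 1. *Slc7a13* was at -0.13, and at -2.34 and called without knockout mouse 1. The 2 at an unadjusted p under 0.05 were both lower, *Slc7a7* at a log2 fold change of -0.87 and *Slc16a10* at -0.75. For both genes the knockout values lay below the control values, and both genes belong to the carriers high in S1.

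Of 14 endocytic genes 6 were higher and 8 lower, with a median of -0.02, and *Dab2* had a log2 fold change of -0.33. This median was -0.15 without knockout mouse 1 and 0.01 without knockout mouse 2. Of 14 phosphate and vitamin D genes 7 were higher and 7 lower, with a median of 0.03, and *Slc34a1* had a log2 fold change of 0.24. Without control mouse 2 that median was 0.32. Of 12 sodium, bicarbonate and ammonia genes 5 were higher and 7 lower, with a median of -0.07, and *Slc4a4* had a log2 fold change of -0.22. Without knockout mouse 1 this turned to 0 higher and 12 lower (median of -0.31), without knockout mouse 2 to 8 higher and 4 lower (0.03) and without control mouse 1 to 6 higher and 6 lower (0.03), and without control mouse 2 it was 2 higher and 10 lower (-0.10). None of these 3 lists had a gene at an unadjusted p under 0.05. Of 20 organic ion carriers 14 were higher and 6 lower, with a median of 0.10, and of -0.04 without the criterion on the 4 genes. This median was 0.23 without knockout mouse 1, 0.20 without control mouse 2, 0.12 without control mouse 1 and 0.07 without knockout mouse 2. The 1 at an unadjusted p under 0.05 was *Slco1a6*, at a log2 fold change of 0.74.

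Of 18 transcription factor genes 12 were higher and 6 lower, 0 were at an unadjusted p under 0.05, and the median was 0.11. *Maf* had a log2 fold change of 0.38 and *Esrrg* of 0.02. The median of this list was -0.05 without knockout mouse 2, with 6 genes higher and 12 lower, 0.02 without control mouse 1, with 9 higher and 9 lower, 0.12 without control mouse 2 and 0.16 without knockout mouse 1.

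Metabolic lists held a few genes at an unadjusted p under 0.05. Of 10 genes of glucose synthesis and fructose breakdown 8 were higher and 2 lower, with a median of 0.21. *Pck1* had 66, 27, 148 and 177 UMIs, with both knockout mice above both control mice, a log2 fold change of 1.19 and an unadjusted p of 0.00143 in edgeR's quasi-likelihood test. It failed the adjustment. In later nuclei *Pck1* stood at 505, 541, 892 and 974 CPM. The median of the list was -0.04 without control mouse 2, -0.05 without knockout mouse 1, 0.49 without control mouse 1 and 0.33 without knockout mouse 2. Of 22 fatty acid genes 15 were higher and 7 lower, with a median of 0.14. This was 0.02 without knockout mouse 1 (11 higher and 10 lower), 0.08 without control mouse 2 (12 and 10), 0.31 without control mouse 1 (16 and 5) and 0.20 without knockout mouse 2 (11 and 10). The 2 at an unadjusted p under 0.05 were *Acaa1b*, a peroxisomal thiolase gene, at 1.06 and *Angptl4*, an inhibitor of lipoprotein lipase, at 2.02.

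Clock genes, which keep daily time in most cells, had 11 of 15 tested members higher and 4 lower, with a median of 0.43. The 4 at an unadjusted p under 0.05 were all higher. *Hlf*, a transcription factor gene under clock control, stood at 86.6, 76.9, 108 and 200.3 CPM, with a log2 fold change of 0.89. *Per2*, a repressor of the clock, stood at 46.6, 23.7, 55.5 and 171 CPM, with a log2 fold change of 1.60. For both of these genes knockout mouse 2 was highest, well above knockout mouse 1. Without knockout mouse 1 *Per2* was called (2.13). *Usp2*, a deubiquitinase gene with daily rhythm, had a log2 fold change of 1.12. *Arntl*, the activator of the clock, stood at 23.3, 71.0, 12.3 and 19.5 CPM, with a log2 fold change of -1.40. The median of the list in later nuclei was 0.40, and in members it was 0.97 without control mouse 1, 0.70 without knockout mouse 1 and 0.36 without knockout mouse 2. Hours of tissue collection were not used here.

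Of 15 glucocorticoid and fasting response genes 8 were higher and 7 lower, with a median of 0.07, and of -0.09 without knockout mouse 2, 0.21 without control mouse 1, 0.03 without control mouse 2 and 0.08 without knockout mouse 1. At an unadjusted p under 0.05 were 2, 1 higher and 1 lower. *Zbtb16*, a transcription factor gene induced by glucocorticoids, stood at 13.3, 23.7, 67.8 and 56.2 CPM, with a log2 fold change of 1.79, and was the higher of the 2. The lower was *Cdkn1a*, a cell cycle inhibitor gene, at 9.99, 47.3, 9.24 and 2.44 CPM and a log2 fold change of -2.11. *Fkbp5*, a chaperone gene induced by glucocorticoids, stood at 383, 142, 305 and 701 CPM, with a log2 fold change of 0.88. Knockout mouse 2 was highest for *Fkbp5* and its genotypes overlapped. *Errfi1*, the gene of this list with most UMIs, had a log2 fold change of -0.19 and *Foxo3* of -0.21.

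Injury genes were low or at 0 in part, with *Lcn2*, *Krt20* and *Ccl2* at 0 in every mouse and *Havcr1*, the injury marker KIM-1, at 3 UMIs in all. Of 13 tested 5 were higher and 8 lower, with a median of -0.51. The 5 at an unadjusted p under 0.05 were all lower, *Itgb6*, *Plscr1*, *Vcam1*, *Cdkn1a* and *Dcdc2a*. *Itgb6*, an integrin subunit gene, stood at 293, 503, 234 and 234 CPM, with a log2 fold change of -0.77. *Vcam1*, an adhesion molecule gene, stood at 16.6, 76.9, 3.08 and 7.33 CPM. Control mouse 2 was highest for both genes. The median of the list was -0.04 without control mouse 2, -1.13 without control mouse 1, -0.81 without knockout mouse 2, -0.29 without knockout mouse 1 and 0.11 without members that held other-cell-type markers. In later nuclei it was -0.54. *Spp1*, the osteopontin gene, stood at 633, 154, 462 and 743 CPM, and 103 of the 304 UMIs in knockout mouse 2 lay in 1 nucleus.

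Immediate early genes were sparse, with *Fos*, *Fosb*, *Egr1* and *Nr4a1* at 0 in every mouse. Of 13 immediate early and heat shock genes tested 8 were higher and 5 lower, 0 were at an unadjusted p under 0.05, and the median was 0.19. The chaperone gene *Hspa8* stood at 433, 225, 665 and 322 CPM, higher in both mice numbered 1. The median turned to -0.02 without control mouse 2 and -0.28 without knockout mouse 1, and was 0.60 without control mouse 1 and 0.24 without knockout mouse 2. Of 14 cholesterol genes 9 were higher and 5 lower, 0 were at an unadjusted p under 0.05, and the median was 0.22. That median was -0.06 without control mouse 2 and -0.06 without knockout mouse 1, 0.37 without control mouse 1 and 0.14 without knockout mouse 2.

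Androgen-responsive genes are high in male proximal tubule. Of 11 tested 9 were higher and 2 lower, with a median of 0.15, and the 1 at an unadjusted p under 0.05 was *Cyp2j13*, at a log2 fold change of 0.64. *Kap*, the kidney androgen-regulated protein gene, stood at 16268, 6812, 21626 and 4123 CPM in members and 78852, 67684, 77425 and 34499 CPM in free RNA. Both mice numbered 1 lay above both numbered 2, and the log2 fold change by genotype was 0.15. Without knockout mouse 1 the log2 fold change of *Kap* was -1.53 and it was called, and the median of the list was 0.01. Without control mouse 2 that median was -0.18, without control mouse 1 it was 0.79 (10 higher and 1 lower), and without knockout mouse 2 it was 0.61 (11 higher and 0 lower).

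Mitochondrially encoded genes were lower in knockout mice in 13 of 13, with 3 at an unadjusted p under 0.05 and a median of -0.67. *mt-Atp6* stood at 3176, 1095, 2030.1 and 677 CPM in members. Control mouse 1 was highest. Without it 8 were higher and 5 lower, with a median of 0.27, and with free RNA subtracted 8 were higher and 3 lower, with a median of 1.31. Subtraction on the scale of these genes themselves removes them by construction, and is not read for them. Without knockout mouse 1 the median was -1.67 and 7 were called, among them *mt-Atp6* at -1.71, without control mouse 2 it was -1.20, and without knockout mouse 2 it was -0.11.

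A last comparison asked whether genotype acted differently in S1-like nuclei and in later proximal tubule nuclei of the same mice. *Unc5c*, which encodes a netrin receptor, was the gene that passed. Its level in members was lower in knockout mice, and its level in later nuclei was not. The difference of the genotype effects, with the mouse as a term in the fit, was called for 1 of 9823 genes, or 0.0102%, by the quasi-likelihood test of edgeR, adjusted after Benjamini-Hochberg. At an unadjusted p under 0.05 there were 497 genes or 5.06%. The count of called genes was 28 without control mouse 1, 13 without control mouse 2, 17 without knockout mouse 1, 12 without knockout mouse 2 and 0 with free RNA subtracted.

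*Unc5c* (ENSMUSG00000059921, chr3:141465564-141834924) had 357 and 220 UMIs in members of the control mice and 214 and 267 in those of the knockout mice, or 1189, 1302, 659 and 652 CPM. In later nuclei it stood at 88.6, 75.6, 128 and 102 CPM, and outside the proximal tubule at 51.7, 43.1, 41.9 and 35.2 CPM. In members the knockout values lay below those of control, and in later nuclei above. Of the members 77.1%, 80.3%, 58.6% and 61.4% held a UMI of it, against 17.1%, 15.5%, 23.6% and 19.5% of later nuclei. In the nuclei left out by the 4 genes it stood at 829, 800.1, 659 and 518 CPM. *Unc5c* thus stood above later nuclei in every mouse, at a fold of 9.65 over all 4, with a smaller excess in both knockout mice.

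The log2 fold change of *Unc5c* was -0.94 (SE 0.27) in members and 0.47 in later nuclei, and without the criterion on the 4 genes it was -0.53. The difference was -1.37 (SE 0.22), with a Benjamini-Hochberg adjusted p of 0.00627 in edgeR's quasi-likelihood test. Over the alternatives the adjusted p ranged from 1.99e-06 without control mouse 1 to 0.297 with free RNA subtracted, where the difference was -1.39 and the call was lost. The call was kept without each single mouse. In members alone *Unc5c* was lower in 4 of 4 pairs and failed the adjustment, with an unadjusted p of 0.00349 in the quasi-likelihood test.

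For *Npas3* the difference between S1-like and later nuclei was 1.31 (SE 1.03), with a Benjamini-Hochberg adjusted p of 0.994 in edgeR's quasi-likelihood test. It was 0.50 without control mouse 1, 2.04 without control mouse 2 and 2.56 without knockout mouse 1, and was called in none of these. Without knockout mouse 2 the knockout members held 0 UMIs, so that the sign of the difference cannot be read. *Tmem117* had a difference of 1.99 and an adjusted p of 0.125, and was called without control mouse 1, at 2.81, and without knockout mouse 2, at 2.37. Over the alternatives its adjusted p ranged from 0.00271 to 1.

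Against the 7637 nuclei outside the proximal tubule, the difference of genotype effects was called for 0 of 9783 genes by edgeR's quasi-likelihood test, and 375 genes or 3.83% were at an unadjusted p under 0.05. DESeq2 was not run on the differences. The count of calls was 6 without knockout mouse 1 and 14 without knockout mouse 2. *Npas3* was among the genes called in both cases. It had a difference of -5.05 with all mice, with a Benjamini-Hochberg adjusted p of 0.991 in that test of edgeR. Outside the proximal tubule alone, 0 of 17046 genes were called and 532 or 3.12% were at an unadjusted p under 0.05.

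The promoter windows of both genes that passed a test are shown, since the deleted gene encodes a factor that binds DNA. Both genes were matched in the RefSeq table of GRCm38.p6 (2 of 2), which holds 250 bases before and 50 after 1 start of each gene, and both windows lie on the plus strand. That of *Npas3* is chr12:53248182-53248481 and that of *Unc5c* is chr3:141465314-141465613. The *Npas3* window lies wholly inside the gene interval given above, so the sequence before the first base of that interval was not searched. They were searched for GCCNNNGGC, an AP-2 motif whose fixed letters read the same on both strands. It had 0 matches in each window, while 5450 of 32851 promoters of that length (16.6%) held it. Matches would stand in capitals, and no match says only that these letters are not in this window.
Npas3: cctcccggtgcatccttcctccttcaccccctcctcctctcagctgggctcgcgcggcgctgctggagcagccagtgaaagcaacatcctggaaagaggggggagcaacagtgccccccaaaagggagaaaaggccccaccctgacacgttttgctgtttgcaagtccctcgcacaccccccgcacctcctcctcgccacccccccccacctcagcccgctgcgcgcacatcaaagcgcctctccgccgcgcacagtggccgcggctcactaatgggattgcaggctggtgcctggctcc
Unc5c: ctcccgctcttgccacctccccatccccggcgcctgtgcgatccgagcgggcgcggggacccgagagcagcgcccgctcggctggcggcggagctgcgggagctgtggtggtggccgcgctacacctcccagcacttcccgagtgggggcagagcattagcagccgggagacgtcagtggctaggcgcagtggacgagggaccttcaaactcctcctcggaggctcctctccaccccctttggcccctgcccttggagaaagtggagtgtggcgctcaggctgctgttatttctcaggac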

How the data were processed

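The authors deposited raw UMI counts per gene and barcode, made with Cell Ranger 3.0.2 and mouse genome mm10 from 10x 3′ libraries. Each file holds 31053 genes and 6794880 barcodes. The 10000 barcodes of each library with the highest UMI totals were taken, and those with 501 to 3999 genes and under 5% mitochondrial UMIs were kept. Members and lists were chosen with earlier results of these data known. Counts were summed per mouse, and edgeR 4.0.16 was run on genes that reached 10 UMIs over all mice (TMM, quasi-likelihood test, Benjamini-Hochberg adjustment, R 4.3.3). Differences between groups of nuclei had the mouse as a term. Called genes had an adjusted p under 0.05. Shares were compared by an exact permutation test (scipy 1.17.1). The fits were tested on simulated data, whose results are neither given nor used here. Genes named were *Tfap2a*, *Tfap2b*, *Wnt9b*, *Alcam*, the markers and genes of the choice, called genes with 1 direction in all 4 pairings of mice (at most 12 per direction), and of each list the called genes and the 3 with most UMIs. Alternatives were DESeq2 1.42.0, its size factors, no TMM, edgeR's filterByExpr, no filter, the replicate number as a block, each mouse left out, other *Slc5a12* limits, under 1% mitochondrial UMIs, members thinned to 1500 UMIs, members with at least 2 UMIs of other-cell-type markers left out, free RNA subtracted on 2 scales, no criterion on the 4 genes, and an adjusted p under 0.1. No doublet caller was run. Coordinates and promoters are RefSeq GRCm38.p6. Results of some genes are not reported here.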

Additional observations from a re-analysis of the deposited data

Results flagged for a closer look

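The genotype effect on *Unc5c* differed between S1-like nuclei and later proximal tubule nuclei of the same mice, by a test of the difference itself. Its log2 fold change in S1-like nuclei minus that in later nuclei was -1.37. The levels were 1189, 1302, 659 and 652 CPM in S1-like nuclei and 88.6, 75.6, 128 and 102 CPM in later nuclei of control mice 1 and 2 and knockout mice 1 and 2.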

How the results depend on the processing

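Called genes in S1-like nuclei numbered 1, and 0 by DESeq2, with filterByExpr, with mixed members left out and with free RNA subtracted on either scale. They numbered 11 without a filter, 10 with the replicate block, and 0 to 31 with 1 mouse left out. With members taken from 1 UMI of *Slc5a12* the count of called genes stayed at 1, but the gene called was not *Npas3*. The replicate block pairs mice that share only a number, with a correlation of 0.203 between their deviations over 9825 genes. Calls of the difference from later nuclei numbered 1, 0 with free RNA subtracted, and 12 to 28 with 1 mouse left out. Calls of the difference from outside nuclei numbered 0, and 0 to 14 with 1 mouse left out. When 1 mouse was left out, the lone mouse of a group was assumed to vary like the other group. The difference in the share of S1-like nuclei kept its direction, at 0.405 to 1.21 percentage points with 1 mouse left out. The log2 fold change of *Kap* was 0.15, and -1.53 (without knockout mouse 1) to 0.89 with 1 mouse left out. In each case the cause was not tested. Of 1212 other values for 72 single genes, 1061 kept their direction and side of the threshold or moved little, and 135 changed sign. Of 288 list medians, 236 moved little and 38 changed sign. The second scale of free RNA and the gate without the criterion on the 4 genes were chosen after seeing the data. Depth limits the test to genes with 10 UMIs over 4 mice.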
